A study of Mus musculus with 28 samples.

Results

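Chemokine receptors are G protein coupled receptors that steer T cells along gradients of their ligands, and the genes Cxcr3, Cxcr6, Ccr2, Cxcr4 and Ccr9 encode those described here. The members were the probe sets whose platform annotation named one of these 5 symbols, which gave 10 probe sets of the 20380 with a single symbol and 5 of the 12393 genes tested. Each was read in 28 preparations of sorted mouse T cells, 1 Affymetrix Mouse 430A2 array per preparation, as log2 signal. All cells came from C57BL/6N mice with a transgenic T cell receptor, OT1 in the CD8+ cells and AND in the CD4+ cells, so that a difference between CD8 and CD4 cells cannot part the lineage from the receptor and its antigen. All were first kept for 2 days in medium with interleukin 7 at 5 ng/ml. The stimulated groups of day 2 (3 CD8 and 3 CD4 arrays) were grown on plates that carried anti-CD3 and anti-CD28 at 10 µg/ml, and the unstimulated groups of day 2 (3 CD8 and 3 CD4 arrays) on untreated plates. The day 5 groups were cells moved from such cultures into host mice for 3 days and sorted from spleen and subcutaneous lymph nodes. Continuous cells (3 CD8 and 3 CD4 arrays) had been stimulated in culture and went into hosts that express their antigen (dtg-O or -M). Transient cells (3 CD8 and 2 CD4 arrays) had been stimulated in culture and went into antigen-free hosts. Unstimulated cells (3 CD8 and 2 CD4 arrays) had seen no antibody and went into antigen-free hosts. The antibodies and the hosts' antigen are different stimuli, and no group here held cells that met antigen only in the host. The series text calls the replicates independent and biological. Gut tissue was not sampled, so that the values describe receptor transcripts in spleen and lymph node cells.

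As background, CXCR3 binds the interferon-induced chemokines CXCL9 and CXCL10 and guides effector T cells into inflamed tissue. CXCR6 binds CXCL16 and marks T cells that settle in liver and other tissues, and CCR2 binds CCL2 and is best known from monocytes that leave the bone marrow. CXCR4 binds CXCL12, which holds cells in bone marrow and lymphoid niches, and CCR9 binds CCL25, made in thymus and small intestine, and is the classical gut homing receptor of T cells. The transcription factor T-bet, encoded by Tbx21, is known to activate Cxcr3, and KLF2 is known to keep lymph node homing genes on in resting T cells.

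The 3 promoters below belong to the members whose signal moved furthest on day 5, and are the 250 bases before the annotated gene start in RefSeq (GRCm38.p6), read 5′ to 3′ along the gene. Capitals mark matches on either strand to 5 short motifs, the T-box core GTGTGA, the KLF core CACCC, the NFAT core GGAAA, the AP-1 site TGANTCA and the retinoic acid receptor element AGGTCA. None of the 5 motifs shared a match with another one in the windows printed. The Cxcr3 window is chrX:101734148-101734397 on the minus strand, that of Cxcr6 is chr9:123806227-123806476 on the plus strand, and that of Ccr9 is chr9:123766961-123767210 on the plus strand.
Cxcr3: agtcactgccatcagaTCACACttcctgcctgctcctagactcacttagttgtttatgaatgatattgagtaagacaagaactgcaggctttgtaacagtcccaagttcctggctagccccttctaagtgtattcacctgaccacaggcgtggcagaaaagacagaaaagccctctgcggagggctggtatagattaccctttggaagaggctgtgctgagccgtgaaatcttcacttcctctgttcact
Cxcr6: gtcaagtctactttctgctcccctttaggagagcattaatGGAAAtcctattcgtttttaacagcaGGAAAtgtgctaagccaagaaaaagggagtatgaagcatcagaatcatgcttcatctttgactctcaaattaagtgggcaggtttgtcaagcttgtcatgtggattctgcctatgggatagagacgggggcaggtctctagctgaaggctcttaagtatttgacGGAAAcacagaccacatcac
Ccr9: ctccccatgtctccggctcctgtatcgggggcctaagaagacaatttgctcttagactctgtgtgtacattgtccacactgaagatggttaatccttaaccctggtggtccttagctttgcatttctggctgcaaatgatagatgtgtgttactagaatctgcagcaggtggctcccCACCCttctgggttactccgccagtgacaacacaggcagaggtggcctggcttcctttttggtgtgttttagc
Cxcr3 held 1 T-box core, on the reverse strand 234 bases before the start, and 14.5% of 32851 mouse promoters of the same length (250 bases before to 50 after the start) held one too. Cxcr6 held 3 NFAT cores, 210, 184 and 20 bases before the start, a motif found in 61.3% of promoters. Ccr9 held 1 KLF core 73 bases before the start, a motif found in 57.5%. The windows of Ccr2 and Cxcr4 held NFAT cores, and Cxcr4 also 1 KLF core. AP-1 sites (7.81% of promoters) and the retinoic acid element (16.3%) were not found in any of the 5 windows, which says only that these letters are not there. A match describes the letters and is no evidence of binding. On chromosome 9 the protein-coding genes run Ccr9, Fyco1, Cxcr6, Xcr1, Ccr1, Ccr1l1, Ccr3 and Ccr2 in the same annotation, so that 3 of the 5 members lie in 1 cluster of receptor genes, while Cxcr4 is on chromosome 1 and Cxcr3 on chromosome X.

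Before the values, some arrays stood apart. Replicate 3 of the unstimulated day 2 group labelled CD8 had Cd8a at 5.78 and Cd8b1 at 4.79, and replicate 3 of the one labelled CD4 had Cd8a at 9.88 and Cd8b1 at 10.5. On both, these coreceptor genes of CD8 cells go against the label. Cd4 and Zbtb7b, genes of CD4 cells, were 5.40 and 5.23 on the array labelled CD4. On its replicates 1 and 2 Cd4 was 8.77 and 8.41, and Zbtb7b 8.20 and 9.17. On the array labelled CD8 they were 7.02 and 6.88, no higher than on its replicates 1 and 2 (Cd4 7.35 and 7.21, Zbtb7b 7.59 and 7.10). The array medians of the third CD8 and CD4 arrays were 4.99 and 4.88, beside 6.38 to 6.55 on the other 26 arrays, so that low signals there also read lower. Day 2 results are therefore given with and without these arrays, called the third arrays here. On day 5, Cd8a was 11.7 to 13.0 on CD8 arrays and 5.34 to 6.22 on CD4 arrays. The mean of 8 B cell marker genes was 8.63 and 7.16 on the transient CD4 arrays and 5.02 to 6.83 on the other 14 arrays of day 5. The mean of 8 myeloid marker genes ranged from 5.31 to 9.31 and differed between arrays of one group. The 3′ minus 5′ signal of beta-actin, which rises as RNA is degraded or shortened in amplification, was 1.92 to 2.73 in unstimulated CD8 and transient CD4 cells of day 5, against 0.31 to 1.02 in the other day 5 groups. On day 2 it was 1.11 to 1.69 in stimulated and 2.28 to 4.30 in unstimulated cells. Stimulation and this signal thus ran together on day 2 for every gene. The part of RNA quality in the day 2 differences of the members and lists was not tested. In bulk RNA, a change in the share of cells that express a gene and a change in RNA per cell cannot be told apart.

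**Figure D1:**
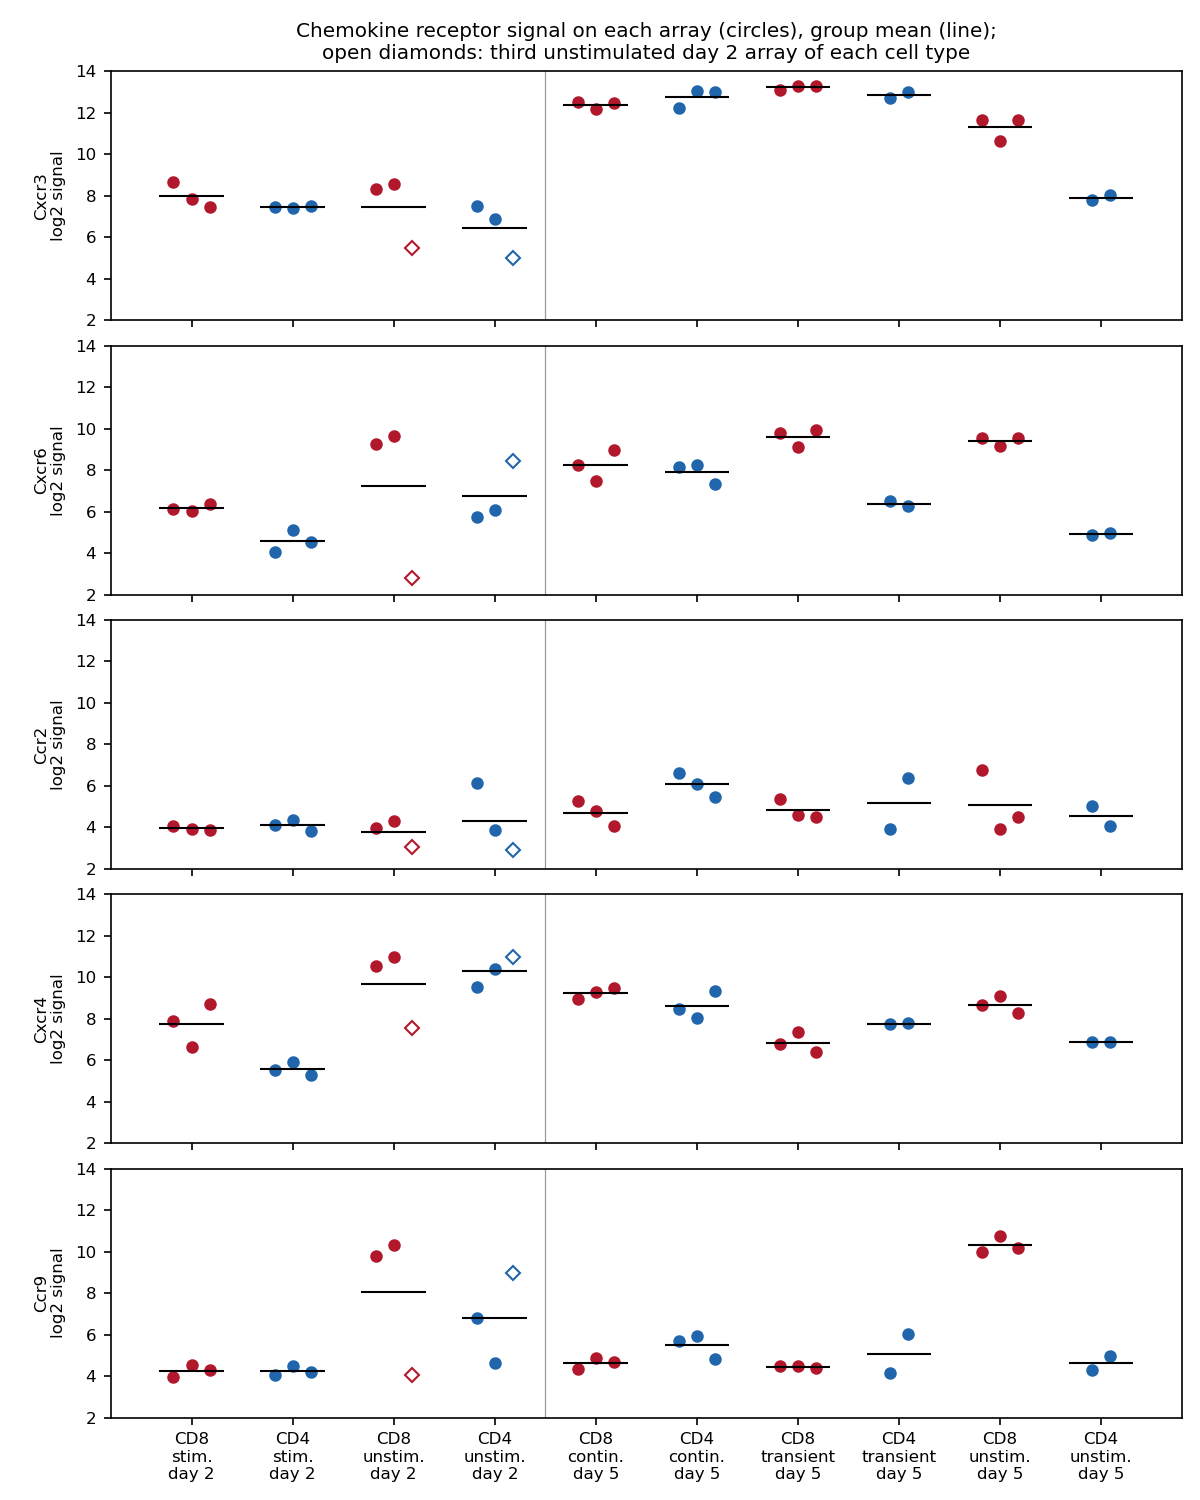
Log2 signal of Cxcr3, Cxcr6, Ccr2, Cxcr4 and Ccr9 on each of 28 arrays in 10 groups (red CD8, blue CD4), with day 2 left of the grey line and day 5 right of it, each point 1 array and each line a group mean. Cxcr3 lies above 12 in every continuous and transient array, Ccr9 lies near 10 in unstimulated CD8 cells of day 5 and below 6.1 on the other day 5 arrays, and the open diamonds fall on the opposite side of their group for Cxcr6 and Ccr9.

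On day 5 the receptors split by cell type and history. Cxcr3 was near the top of the array in all previously stimulated cells of both types, 12.2 to 13.3, and among unstimulated cells it was already 10.7 to 11.7 in CD8 cells but 7.79 and 8.02 in CD4 cells. Ccr9 was high in unstimulated CD8 cells, 9.97 to 10.8, and 4.35 to 4.89 in continuous and transient CD8 cells, where it lay at the 20.0th to 28.7th percentile of the array. The log2 differences were -5.68 and -5.87 on the main probe set and between -2.22 and -1.10 on the other 2 probe sets of Ccr9. On its main probe set Cxcr6 was lower in continuous than in transient CD8 cells and higher in continuous than in transient CD4 cells. The second probe set of Cxcr6 called the CD4 difference and not the CD8 one. Cxcr4 was 5.30-fold higher in continuous than in transient CD8 cells. Ccr2 passed the test in no comparison on its main probe set.

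Counts over the 5 members are read against the share of all 12393 genes called at an adjusted p below 0.05 in the same limma comparison. For continuous against unstimulated cells, 3 of 5 members were called in CD8 cells (1 up, 2 down), where 47.3% of genes were, and 3 of 5 in CD4 cells (3 up), where 20.7% were. For transient against unstimulated cells, 3 of 5 were called in CD8 cells (1 up, 2 down; 31.8% of genes) and 2 of 5 in CD4 cells (2 up; 22.8%). For continuous against transient cells, 3 of 5 were called in CD8 cells (1 up, 2 down; 27.2%) and 1 of 5 in CD4 cells (1 up; 34.1%). Between CD8 and CD4 cells, 4 of 5 members were higher in unstimulated CD8 cells (28.7% of genes called), 1 of 5 was higher in transient CD8 cells (27.1%), and 0 of 5 were called in continuous cells (11.2%), where 0 of 5 had an unadjusted p below 0.05 as well. The test of whether the cell types differ in the transient minus unstimulated difference called 3 of 5 members (37.5% of genes), and the same for continuous minus transient called 2 of 5 (18.9%). On day 2, stimulation gave 0 called members of 5 in CD8 cells (8.35% of genes; 2 of 5 with an unadjusted p below 0.05) and 1 of 5 in CD4 cells (11.4%). The cell types differed on day 2 in 0 of 5 members for the response itself (0% of genes; 1 of 5 unadjusted) and in 0 of 5 for the level after stimulation (0.0242%; 1 of 5 unadjusted). Across days, 1 of 5 was called for continuous day 5 against stimulated day 2 in CD8 cells (4.68%) and 2 of 5 in CD4 cells (9.01%). These shares come from the same arrays as the members. Comparisons within a cell type on day 5 share arrays, so that their counts are not independent. When all 28 arrays were fitted together, with the wide spread of the unstimulated day 2 arrays in the common variance, the day 5 counts fell to between 0 and 2. The shares of all genes called in that fit are not given here. The calls that held there were those of Cxcr3 within CD4 cells against unstimulated cells and between unstimulated CD8 and CD4 cells, those of Ccr9, and that of Cxcr4 between continuous and transient CD8 cells.

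**Figure D2:**
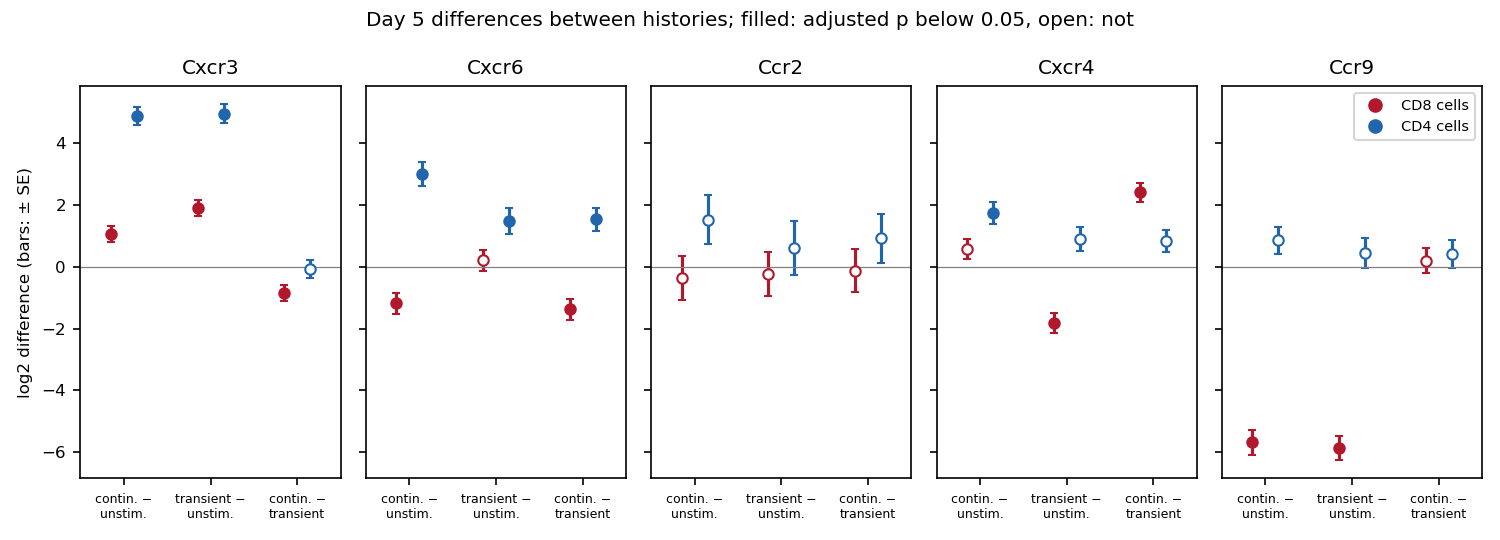
Log2 differences on day 5 for continuous minus unstimulated, transient minus unstimulated and continuous minus transient cells, in CD8 (red) and CD4 (blue) cells, with bars of ± 1 SE from limma and filled circles for an adjusted p below 0.05. Each gene is shown by its main probe set. Cxcr3 differs most in CD4 cells (4.95 and 4.86 over unstimulated), Ccr9 in CD8 cells (-5.87 and -5.68), and Cxcr6 differs in opposite directions between continuous and transient cells of the 2 types.

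Cxcr3, the receptor for the interferon-induced chemokines, has 1 probe set (1449925_at). In CD8 cells of day 5 its signal was 12.5, 12.2 and 12.5 in continuous cells, 13.1, 13.3 and 13.3 in transient cells, and 11.7, 10.7 and 11.7 in unstimulated cells. In CD4 cells it was 12.2, 13.1 and 13.0 in continuous cells, 12.7 and 13.0 in transient cells, and 7.79 and 8.02 in unstimulated cells. No continuous or transient array overlapped the unstimulated arrays of its cell type. Transient minus unstimulated was 1.91 in CD8 cells (SE 0.26, adjusted p = 9.67e-05) and 4.95 in CD4 cells (SE 0.32, adjusted p = 1.2e-06), which is 3.76-fold and 30.9-fold in signal. Continuous minus unstimulated was 1.07 in CD8 cells (SE 0.26, adjusted p = 0.00412) and 4.86 in CD4 cells (SE 0.29, adjusted p = 4.49e-07). The difference between cell types in the transient minus unstimulated contrast was -3.04 (SE 0.41, adjusted p = 6.21e-05). The 3′ minus 5′ beta-actin signal also ran in opposite directions in the cell types there, and its part was not tested. Unstimulated CD8 cells exceeded unstimulated CD4 cells by 3.42 (SE 0.29, adjusted p = 3.23e-06). Among transient cells CD8 minus CD4 was 0.38 (SE 0.29, adjusted p = 0.375), and among continuous cells -0.37 (SE 0.26, adjusted p = 0.446). Continuous minus transient was -0.84 in CD8 cells (SE 0.26, adjusted p = 0.0261). That call was lost in 4 of the fits that leave out 1 array of these groups, with differences of -0.81 without transient array 2, -0.82 without transient array 3, -0.91 without continuous array 1 and -0.73 without continuous array 2. In CD4 cells it was -0.09 (SE 0.29, adjusted p = 0.851). The mean of 8 B cell markers was 8.63 and 7.16 on the transient and 5.02 to 5.07 on the continuous CD4 arrays. The part of B cell RNA in the Cxcr3 signal was not tested. Signals above 12 correspond to the 97.4th to 99.4th percentile of all probe sets on these arrays, close to the top of the scale. A larger rise might not be read there in full. The -3.04 thus cannot part a different response from the different unstimulated levels.

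On day 2 the same probe set showed no called change. Cxcr3 was 8.65, 7.83 and 7.44 in stimulated CD8 cells, against 8.32, 8.59 and 5.47 in unstimulated CD8 cells. It was 7.48, 7.43 and 7.52 in stimulated CD4 cells, against 7.49, 6.90 and 4.98 in unstimulated CD4 cells. The lowest value of each unstimulated group was on the third array, which also had the low median. Stimulated minus unstimulated was 0.52 in CD8 cells (SE 0.79, adjusted p = 0.811) and 1.02 in CD4 cells (SE 0.79, adjusted p = 0.494), and without the third arrays it was -0.48 (adjusted p = 0.267) and 0.28 (adjusted p = 0.461). The direction in CD8 cells was also negative after another quantile normalization, -0.35. Against the stimulated cells of day 2, continuous cells of day 5 had Cxcr3 higher by 4.41 in CD8 cells (SE 0.60, adjusted p = 5.35e-05) and by 5.29 in CD4 cells (SE 0.60, adjusted p = 3.79e-06). Time, the move into a host and the handling of the samples cannot be told apart in that comparison. Unstimulated CD8 cells were 10.7 to 11.7 on day 5 and 8.32 and 8.59 on the first and second arrays of day 2, a difference across days that was not tested. Ordered by mean signal, transient CD8 cells (13.2 ± 0.11) stood above the other groups without overlap. Transient CD4 (12.8 ± 0.20, n = 2), continuous CD4 (12.8 ± 0.45) and continuous CD8 cells (12.4 ± 0.20) followed, and each overlapped its neighbour. Unstimulated CD8 cells of day 5 (11.3 ± 0.58) lay below them and above the remaining 5 groups, whose means ran from 6.46 to 7.98 (SD, n = 3 unless given).

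Cxcr6, the receptor for the membrane-bound chemokine CXCL16, has 2 probe sets. On the main one (1422812_at, the one with the higher mean) CD8 cells of day 5 had 8.24, 7.46 and 8.99 in continuous cells, 9.79, 9.10 and 9.96 in transient cells, and 9.54, 9.16 and 9.54 in unstimulated cells. CD4 cells had 8.15, 8.23 and 7.35 in continuous cells, 6.50 and 6.27 in transient cells, and 4.86 and 4.95 in unstimulated cells. Continuous CD8 cells did not overlap the other CD8 groups, and the 3 CD4 groups did not overlap one another. Continuous minus transient was -1.38 in CD8 cells (SE 0.34, adjusted p = 0.0074) and 1.53 in CD4 cells (SE 0.38, adjusted p = 0.00614). The cell types differed in this contrast by -2.91 (SE 0.51, adjusted p = 0.00154). Continuous minus unstimulated was 3.00 in CD4 cells (SE 0.38, adjusted p = 0.000103), an 8.01-fold higher signal. In unstimulated cells CD8 exceeded CD4 by 4.51 (SE 0.38, adjusted p = 2.97e-06), in transient cells by 3.23 (SE 0.38, adjusted p = 3.8e-05), and in continuous cells by 0.32 (SE 0.34, adjusted p = 0.661).

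The second probe set of Cxcr6 (1425832_a_at) followed the first with r = 0.90 over 28 arrays, arrays that share groups, and differed from it in call or sign in several comparisons. It also separated continuous from transient CD4 cells, by 3.06 (SE 0.45, adjusted p = 0.000154), and the difference between cell types in this contrast was -3.88 (SE 0.61, adjusted p = 0.000787). Continuous minus transient in CD8 cells was -0.82 on it (SE 0.40, adjusted p = 0.167). Continuous minus unstimulated in CD8 cells was -1.18 on the main probe set (SE 0.34, adjusted p = 0.0107) and 0.21 on the second (SE 0.40, adjusted p = 0.688). Without continuous array 2 the main value was -0.80 (adjusted p = 0.0553). Transient minus unstimulated in CD4 cells was 1.48 on the main probe set (SE 0.41, adjusted p = 0.0199) and -0.35 on the second (SE 0.50, adjusted p = 0.672). That call was also lost in each fit that leaves out 1 of these 4 arrays (1.43 and 1.52 without unstimulated array 1 or 2, 1.36 and 1.59 without transient array 1 or 2). The difference between cell types in transient minus unstimulated was -1.28 on the main probe set (adjusted p = 0.076) and 1.38 on the second (adjusted p = 0.109), with opposite signs and no call. The higher signal in CD8 than in CD4 cells was called on both probe sets in unstimulated cells (3.13 on the second) and in transient cells (4.51 on the second).

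On day 2 the main probe set of Cxcr6 read 6.11, 6.02 and 6.37 in stimulated CD8 cells, against 9.28, 9.66 and 2.78 in unstimulated CD8 cells. It read 4.07, 5.11 and 4.56 in stimulated CD4 cells, against 5.76, 6.06 and 8.46 in unstimulated CD4 cells. The third unstimulated arrays thus lie on the side of the other cell type, as they do for Cd8a. With all 12 arrays the difference was -1.08 in CD8 cells (SE 1.36, adjusted p = 0.754) and -2.18 in CD4 cells (SE 1.36, adjusted p = 0.373). Without the third arrays it was -3.31 in CD8 cells (SE 0.29, adjusted p = 9.4e-05) and -1.33 in CD4 cells (SE 0.29, adjusted p = 0.00377), and 37.9% and 65.7% of all genes were called in those fits. The cell types then differed by -1.98 (SE 0.41, adjusted p = 0.0469; 2.49% of genes), a contrast that was 1.10 with all arrays. On the second probe set the differences without the third arrays were -2.03 in CD8 cells (adjusted p = 0.0166) and -0.74 in CD4 cells (adjusted p = 0.235). Among stimulated cells CD8 minus CD4 was 1.58, with adjusted p = 1 in the fit of all arrays and 0.0325 in the fit without the third arrays, where 0.702% of genes were called. On the second probe set it was 1.40 (adjusted p = 0.36 without the third arrays). Continuous cells of day 5 exceeded stimulated cells of day 2 by 2.07 in CD8 cells (SE 1.06, adjusted p = 0.402) and by 3.33 in CD4 cells (SE 1.06, adjusted p = 0.0504). Without the third arrays both were called, with adjusted p = 8e-05 and 2.03e-07. By mean signal, transient CD8 (9.61 ± 0.46) and unstimulated CD8 cells of day 5 (9.41 ± 0.22) came first and overlapped, continuous CD8 (8.23 ± 0.77) and continuous CD4 cells (7.91 ± 0.48) overlapped below them, and unstimulated CD4 cells of day 5 (4.91 ± 0.06, n = 2) and stimulated CD4 cells of day 2 (4.58 ± 0.52) came last (SD, n = 3 unless given).

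**Figure D3:**
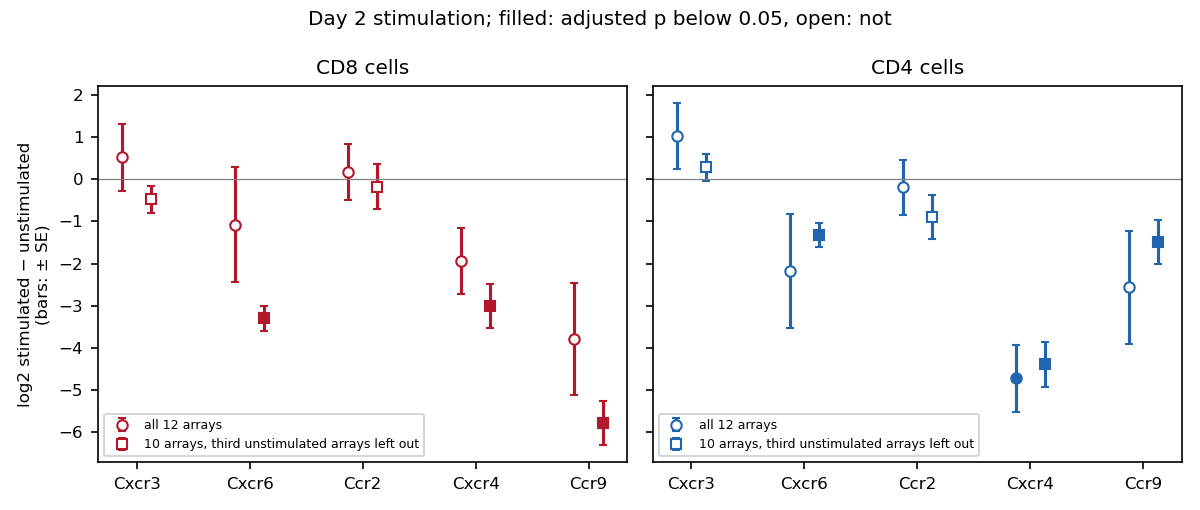
Log2 difference of stimulated minus unstimulated cells on day 2 with bars of ± 1 SE, from all 12 arrays (circles) and from 10 arrays without the third unstimulated array of each cell type (squares), for CD8 cells (left) and CD4 cells (right), filled where the adjusted p is below 0.05. Without these arrays Cxcr6, Cxcr4 and Ccr9 are lower in stimulated cells of both types (-3.31, -3.01 and -5.79 in CD8 cells, -1.33, -4.39 and -1.49 in CD4 cells).

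Ccr2, the receptor that brings monocytes out of the bone marrow, was read by probe sets with low signals on most arrays. They (1421186_at, the main one, 1421187_at and 1421188_at) had median percentiles of 17.0, 12.0 and 9.32 among all probe sets of an array, and 0 of 17 comparisons called it on the main probe set. On day 5 the main probe set read 5.26, 4.78 and 4.05 in continuous, 5.36, 4.58 and 4.52 in transient, and 6.78, 3.91 and 4.49 in unstimulated CD8 cells. It read 6.63, 6.12 and 5.47 in continuous, 3.93 and 6.38 in transient, and 5.04 and 4.07 in unstimulated CD4 cells. The 3 arrays above 6.3 were unstimulated CD8 array 1, continuous CD4 array 1 and transient CD4 array 2, on which the myeloid marker mean was 9.31, 8.08 and 9.21, the 3 highest of the 16 arrays. Continuous CD4 arrays 2 and 3 had Ccr2 at 6.12 and 5.47 with a myeloid mean of 5.62 and 5.73, near the lowest of day 5 (5.31). Continuous minus unstimulated was -0.37 in CD8 cells (SE 0.71, adjusted p = 0.692) and 1.52 in CD4 cells (SE 0.79, adjusted p = 0.216). On day 2 Ccr2 was 4.08, 3.92 and 3.86 in stimulated CD8 cells, against 3.96, 4.30 and 3.08 in unstimulated CD8 cells. It was 4.13, 4.35 and 3.83 in stimulated CD4 cells, against 6.14, 3.87 and 2.90 in unstimulated CD4 cells. The day 2 groups overlapped, and stimulated minus unstimulated was 0.18 in CD8 cells (SE 0.66, adjusted p = 0.941) and -0.20 in CD4 cells (SE 0.66, adjusted p = 0.905). Continuous CD4 cells of day 5 and stimulated CD4 cells of day 2 did not overlap. Their difference of 1.97 (SE 0.71) had adjusted p = 0.098 with all arrays and 0.0274 without the third unstimulated arrays. Ordered by mean, every neighbouring pair of the 10 groups overlapped, from 6.07 ± 0.58 in continuous CD4 cells to 3.78 ± 0.63 in unstimulated CD8 cells of day 2 (SD, n = 3 each). The other probe sets correlated with the main one at r = 0.52 and 0.76 over the 28 arrays.

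**Figure D4:**
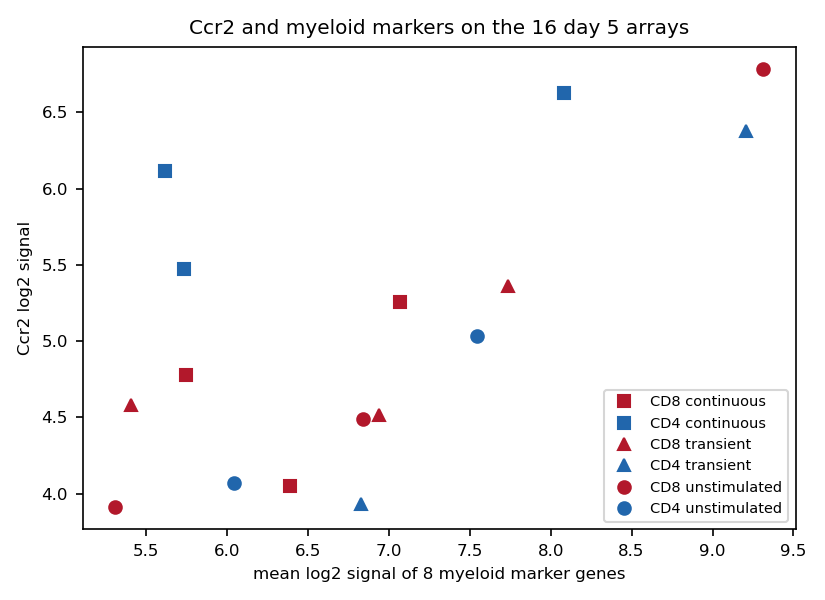
Ccr2 log2 signal (vertical axis) against the mean log2 signal of 8 myeloid marker genes (horizontal axis) on the 16 arrays of day 5, red for CD8 and blue for CD4 cells, squares for continuous, triangles for transient and circles for unstimulated cells. The 3 arrays with a myeloid mean above 8 carry the 3 highest Ccr2 signals (6.38 to 6.78), and continuous CD4 arrays 2 and 3 lie at 6.12 and 5.47 with a mean below 6. The part of myeloid RNA in the Ccr2 signal was not tested.

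Cxcr4, the CXCL12 receptor, was read by 1 probe set (1448710_at). On day 2 it was 7.87, 6.64 and 8.71 in stimulated CD8 cells, against 10.5, 11.0 and 7.54 in unstimulated CD8 cells. It was 5.52, 5.92 and 5.27 in stimulated CD4 cells, against 9.53, 10.4 and 11.0 in unstimulated CD4 cells. The CD4 groups did not overlap, and the CD8 groups overlapped through the third unstimulated array. Its 7.54 lay at the 86.6th percentile of that array, against the 52.6th to 73.4th in stimulated CD8 cells. Stimulated minus unstimulated was -4.73 in CD4 cells (SE 0.79, adjusted p = 0.00237), a 26.5-fold lower signal, and it stayed between -5.41 and -4.39 with a call in the 15 alternatives tried. In CD8 cells it was -1.94 (SE 0.79, adjusted p = 0.154) with all arrays and -3.01 (SE 0.53, adjusted p = 0.00316) without the third arrays. That CD8 difference was called in 6 of 15 alternatives. Among them were quantile normalization, median centring, array weights and the single fit of 28 arrays, which keep the third arrays. The 3′ minus 5′ beta-actin signal was 1.11 to 1.39 in stimulated and 3.37 to 4.30 in unstimulated CD4 cells of day 2. In CD8 cells it was 1.38 to 1.69 and 2.28 to 4.27. Its part in these Cxcr4 differences was not tested. The responses of the cell types differed by 2.79 (SE 1.12, adjusted p = 1), and by 1.39 (adjusted p = 0.303) without the third arrays. Stimulated CD8 cells were 2.17 above stimulated CD4 cells (SE 0.79, adjusted p = 1 with all arrays and 0.105 without the third arrays). Across the comparisons of stimulated with unstimulated cells on day 2, the median of all genes was 0.14 in both cell types as deposited. It was -0.20 in both after another quantile normalization, and -0.32 in CD8 and -0.29 in CD4 cells after median centring.

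On day 5 Cxcr4 was 8.94, 9.30 and 9.51 in continuous, 6.77, 7.38 and 6.38 in transient, and 8.68, 9.08 and 8.26 in unstimulated CD8 cells. It was 8.46, 8.03 and 9.34 in continuous, 7.74 and 7.80 in transient, and 6.90 and 6.87 in unstimulated CD4 cells. Transient CD8 cells were the lowest CD8 group without overlap, whereas in CD4 cells the unstimulated group was the lowest without overlap. Continuous minus transient was 2.41 in CD8 cells (SE 0.32, adjusted p = 0.000122) and 0.84 in CD4 cells (SE 0.35, adjusted p = 0.0825), and the CD4 value was 1.13 without continuous array 2 (adjusted p = 0.0252). Transient minus unstimulated was -1.83 in CD8 cells (SE 0.32, adjusted p = 0.000623) and 0.89 in CD4 cells (SE 0.39, adjusted p = 0.122), and the cell types differed in this contrast by -2.72 (SE 0.50, adjusted p = 0.000748). As for Cxcr3, the part of the beta-actin 3′ minus 5′ difference in it was not tested. The difference between cell types for continuous minus transient was 1.56 (SE 0.47, adjusted p = 0.034). That call was lost, with differences of 1.28 to 1.59, in 8 of the 11 fits that leave out 1 array, and kept without transient CD8 array 2, continuous CD8 array 1 or continuous CD4 array 3 (1.83, 1.72 and 1.93). It was also lost with the replicate number as a block (1.58, adjusted p = 0.052) and in the single fit of 28 arrays. Continuous minus unstimulated was 0.58 in CD8 cells (SE 0.32, adjusted p = 0.147) and 1.73 in CD4 cells (SE 0.35, adjusted p = 0.00335). Unstimulated CD8 cells exceeded unstimulated CD4 cells by 1.79 (SE 0.35, adjusted p = 0.00192). CD8 minus CD4 was -0.93 in transient cells (SE 0.35, adjusted p = 0.0682), and -1.19 without transient CD8 array 2 (adjusted p = 0.0285). It was 0.64 in continuous cells (SE 0.32, adjusted p = 0.243), and 1.00 without continuous CD4 array 3 (adjusted p = 0.0498). Continuous cells of day 5 exceeded stimulated cells of day 2 by 1.51 in CD8 cells (SE 0.62, adjusted p = 0.225) and 3.04 in CD4 cells (SE 0.62, adjusted p = 0.00249). Without the third arrays the CD8 value was called as well (adjusted p = 0.00953). By mean, unstimulated CD4 (10.3 ± 0.72) and CD8 cells (9.68 ± 1.86) of day 2 came first and stimulated CD4 cells of day 2 (5.57 ± 0.33) came last, below all other groups without overlap (SD, n = 3 each).

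Ccr9, the gut homing receptor for CCL25, was the member with the sharpest group pattern in CD8 cells. On the main probe set (1427419_x_at) CD8 cells of day 5 read 4.35, 4.89 and 4.66 in continuous, 4.48, 4.47 and 4.37 in transient, and 9.97, 10.8 and 10.2 in unstimulated cells. CD4 cells read 5.71, 5.93 and 4.82 in continuous, 4.15 and 6.02 in transient, and 4.32 and 4.96 in unstimulated cells. The unstimulated CD8 arrays lay far above all other day 5 arrays, and the CD4 groups overlapped. Continuous minus unstimulated was -5.68 in CD8 cells (SE 0.40, adjusted p = 2.64e-07) and 0.85 in CD4 cells (SE 0.45, adjusted p = 0.227). Transient minus unstimulated was -5.87 in CD8 cells (SE 0.40, adjusted p = 5.1e-07) and 0.45 in CD4 cells (SE 0.49, adjusted p = 0.572). The cell types differed in this contrast by -6.31 (SE 0.64, adjusted p = 5.23e-06). Unstimulated CD4 cells already read near the 4.35 to 4.89 of continuous and transient CD8 cells, so that a fall in CD4 cells could hardly be read. The -6.31 thus cannot part a different response from the different unstimulated levels. Continuous minus transient was 0.19 in CD8 cells (SE 0.40, adjusted p = 0.796) and 0.40 in CD4 cells (SE 0.45, adjusted p = 0.536). Unstimulated CD8 cells exceeded unstimulated CD4 cells by 5.67 (SE 0.45, adjusted p = 1.84e-06), while CD8 minus CD4 was -0.65 in transient (adjusted p = 0.331) and -0.86 in continuous cells (adjusted p = 0.216). The transient CD4 arrays were far apart, and values that rest on them moved with the array left out. Without transient array 1, transient minus unstimulated in CD4 cells was 1.38 (adjusted p = 0.0449) and CD8 minus CD4 in transient cells was -1.58 (adjusted p = 0.0154), and without transient array 2, continuous minus transient in CD4 cells was 1.34 (adjusted p = 0.0253).

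The other Ccr9 probe sets (1421920_a_at and 1421919_a_at) had the same calls at smaller sizes. Continuous minus unstimulated in CD8 cells was -2.22 and -1.11 on them, transient minus unstimulated -2.22 and -1.10, and CD8 minus CD4 in unstimulated cells 2.13 and 1.26, with adjusted p values of at most 0.000275. The difference between cell types for transient minus unstimulated was -1.96 and -1.22 (adjusted p = 0.00171 and 0.0026). Unstimulated CD4 cells of day 5 were low here too, 4.92 and 4.99 on 1421920_a_at and 4.83 and 4.65 on 1421919_a_at. The same limit therefore holds for these differences. The suffix of 1427419_x_at marks, in the naming of this array maker, a probe set whose probes may also match other transcripts. The 3′ minus 5′ beta-actin difference was higher in unstimulated than in other CD8 cells of day 5, and its part in the Ccr9 difference was not tested.

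On day 2 Ccr9 was 3.95, 4.55 and 4.29 in stimulated CD8 cells, against 9.77, 10.3 and 4.07 in unstimulated CD8 cells. It was 4.04, 4.47 and 4.20 in stimulated CD4 cells, against 6.82, 4.63 and 8.95 in unstimulated CD4 cells. As for Cxcr6, the third unstimulated arrays lie on the side of the other cell type. Stimulated minus unstimulated was -3.80 in CD8 cells (SE 1.33, adjusted p = 0.0977) and -2.57 in CD4 cells (SE 1.33, adjusted p = 0.263) with all arrays. Without the third arrays it was -5.79 in CD8 cells (SE 0.53, adjusted p = 0.000115) and -1.49 in CD4 cells (SE 0.53, adjusted p = 0.0326), and the cell types differed by -4.29 (SE 0.75, adjusted p = 0.0326). The probe set 1421920_a_at gave -2.75, -0.78 and -1.97 for these 3 differences, each called, and 1421919_a_at gave -0.93 (adjusted p = 0.0101), -0.37 (adjusted p = 0.153) and -0.56 (adjusted p = 0.303). Stimulated CD8 and CD4 cells differed by 0.03. Continuous cells of day 5 minus stimulated cells of day 2 were 0.37 in CD8 (SE 1.05, adjusted p = 1) and 1.25 in CD4 cells (SE 1.05, adjusted p = 0.668). The CD4 value had adjusted p = 0.041 without the third unstimulated arrays. Ordered by mean, unstimulated CD8 cells of day 5 (10.3 ± 0.42) came first, and each neighbour in the order overlapped, in part through the third arrays of the unstimulated day 2 groups (8.06 ± 3.46 in CD8 and 6.80 ± 2.16 in CD4 cells). The remaining 7 groups had means of 4.23 to 5.49.

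Genes of the same pathways were read from lists chosen by function. Their day 2 values without the third arrays were added after seeing the data, in fits that called 37.9% of all genes in CD8 and 65.7% in CD4 cells, against 8.35% and 11.4% with all arrays. Of 10 ligands of the members, limma called 1 with stimulation in CD8 cells on day 2, a rise, and 0 in CD4 cells (0 with an unadjusted p below 0.05). When the third arrays were left out, 1 rose and 4 fell in CD8 cells and 0 rose and 6 fell in CD4 cells. Cxcl10, a CXCR3 ligand, was higher in stimulated than in unstimulated CD8 cells on day 2 (3.11, SE 0.70, adjusted p = 0.0155), 8.40 ± 0.43 against 5.29 ± 1.13 (SD, n = 3 each), and by 2.46 without the third arrays (adjusted p = 0.000261). It was also higher in continuous than in transient CD8 cells (1.35, SE 0.42, adjusted p = 0.0281). Ccl25, the CCR9 ligand, had group means between 5.49 and 6.53 on day 5 and fell by 1.04 in transient minus unstimulated CD4 cells (adjusted p = 0.00133). For continuous minus unstimulated CD8 cells 1 of 10 ligands rose, Ccl25 by 0.54, and 3 fell, among them Ccl8 (-0.35) and Ccl7 (-0.34), ligands of CCR2. Ccl8 averaged 5.21 in continuous and 5.56 in unstimulated cells, and Ccl7 3.95 and 4.29. These levels are low, below the array medians of 6.38 to 6.49 in these groups. The 4 of 10 ligands called stand beside 47.3% of all genes called in that comparison.

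Among 16 other chemokine receptors, the lymph node homing receptor Ccr7 carried the clearest pattern. It averaged 8.79 ± 0.82 in continuous, 10.3 ± 0.19 in transient and 10.5 ± 0.24 in unstimulated CD8 cells, and 8.73 ± 0.11 in continuous, 10.5 ± 0.06 (n = 2) and 11.1 ± 0.22 (n = 2) in transient and unstimulated CD4 cells (SD, n = 3 unless given). Continuous minus transient was -1.51 in CD8 cells (SE 0.29, adjusted p = 0.00168) and -1.75 in CD4 cells (SE 0.33, adjusted p = 0.000916). Of the 16, 0 rose and 1 fell in that comparison of CD8 cells, and 0 rose and 6 fell in CD4 cells, where 27.2% and 34.1% of all genes were called, so that the CD4 share is close to that of all genes. The 6 include Ccr1 (-3.59), a receptor of myeloid cells, and Ccr6 (-2.42), which B cells express, and all 8 B cell markers fell in the same comparison. How much of that count comes from B cell or myeloid RNA in the transient CD4 arrays was not tested. For transient minus unstimulated cells, 0 of 16 were called in CD8 cells by limma (0 with an unadjusted p below 0.05; 31.8% of all genes called), and 2 rose in CD4 cells (22.8%), Ccr1 (3.70) and Ackr3 (1.22). For continuous minus unstimulated cells, 0 rose and 3 fell in CD8 cells (47.3% of all genes) and 0 rose and 1 fell in CD4 cells (20.7%). With all arrays of day 2, Ccr7 rose in CD8 cells (2.52, SE 0.72, adjusted p = 0.0473) and Ccr8 in CD4 cells (2.10, SE 0.46, adjusted p = 0.0105), each the single receptor of the 16 called. The value was 1.57 for Ccr7 in CD8 cells (adjusted p = 0.0161) and 1.80 for Ccr8 in CD4 cells (adjusted p = 0.0029) without the third arrays. In those fits 3 receptors rose and 3 fell in CD8 cells, and 1 rose and 9 fell in CD4 cells.

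**Figure D5:**
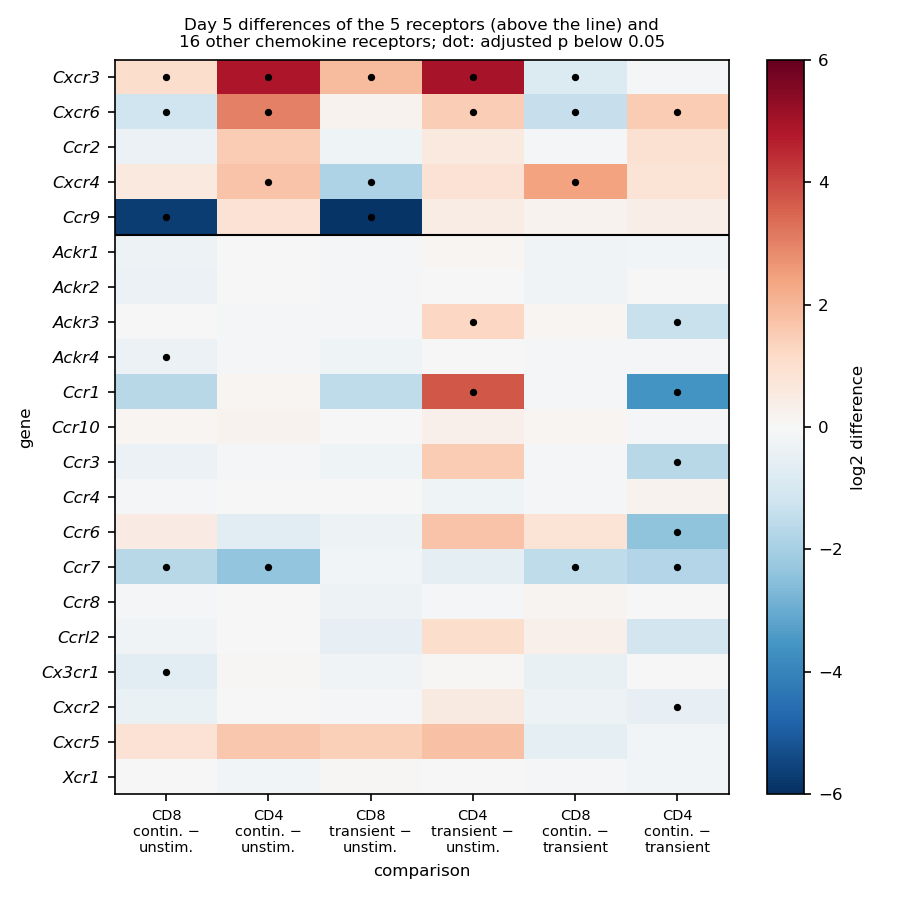
Log2 differences on day 5 (colour) of the 5 members, above the line, and of 16 other chemokine receptors in 6 comparisons within CD8 and CD4 cells, with a dot where the adjusted p is below 0.05. The deepest colours are Ccr9 in CD8 cells (-5.68 and -5.87) and Cxcr3 in CD4 cells (4.86 and 4.95), and Ccr7 is lower in continuous cells of both types.

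The 5 measured genes of lymph node homing and egress were the receptors Ccr7, S1pr1 and S1pr4 and the transcription factors Klf2 and Foxo1. In continuous against transient cells 0 rose and 5 fell in CD8 cells (27.2% of all genes called), and 2 rose and 1 fell in CD4 cells (34.1%). Klf2, a factor for homing genes of resting T cells, was 5.62 ± 0.19 in stimulated against 11.2 ± 1.09 in unstimulated CD8 cells on day 2, and 7.15 ± 0.22 against 11.5 ± 0.47 in CD4 cells, with differences of -5.62 and -4.38 (adjusted p = 3.21e-05 and 0.00021), and of -6.24 and -4.59 without the third arrays. On day 5 Klf2 rose in transient minus unstimulated CD8 cells by 1.15 (adjusted p = 0.000332) and fell by 1.84 in CD4 cells (adjusted p = 8.5e-05), and S1pr1, which lets lymphocytes leave lymph nodes, changed by 1.36 and -2.51 in the same comparisons. Both genes differed between cell types there (2.99 and 3.87), in the direction opposite to Cxcr3, Cxcr4 and Ccr9. That contrast called 37.5% of all genes, 2298 up and 2344 down, so that either sign was common. It also rests on the 2 transient CD4 arrays, and the part of B cell RNA and RNA quality was not tested.

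Adhesion molecules act with the receptors in homing. Itgae, the αE chain that binds E-cadherin of gut epithelium, was 6.41 ± 0.39 in continuous, 9.07 ± 0.41 in transient and 9.69 ± 0.47 in unstimulated CD8 cells of day 5 (SD, n = 3 each). The log2 difference of Itgae was -2.67 for continuous minus transient CD8 cells (adjusted p = 2.87e-05) and -3.28 for continuous minus unstimulated CD8 cells (adjusted p = 8.87e-07). Ccr9 was 4.35 to 4.89 in continuous and 4.37 to 4.48 in transient CD8 cells. Both groups lay at the 20.0th to 28.7th percentile of the array, where a further fall could hardly be read. Itgb7, the β7 chain of the gut homing integrins, rose by 1.47 in transient minus unstimulated CD8 cells (adjusted p = 3.47e-05) and fell by 1.33 in CD4 cells (adjusted p = 0.000679). Of 9 adhesion genes measured, 5 rose and 0 fell in transient minus unstimulated CD8 cells (31.8% of all genes called), and 1 rose and 2 fell in CD4 cells (22.8%). For continuous minus unstimulated cells 5 rose and 1 fell in CD8 cells (47.3%) and 4 rose and 0 fell in CD4 cells (20.7%).

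Among 14 genes of receptor signalling and desensitisation, Rgs1, which shortens chemokine receptor signals, rose by 5.65 in CD8 and 5.81 in CD4 cells with stimulation on day 2 (adjusted p = 4.07e-05 and 4.67e-05), and by 5.31 and 5.54 without the third arrays. On day 5 it was 2.08 higher in continuous than in unstimulated CD8 cells (adjusted p = 0.0019) and 3.33 higher in CD4 cells (adjusted p = 0.00043). In that comparison 5 of the 14 rose and 2 fell in CD8 cells, and 2 rose and 2 fell in CD4 cells, shares near the 47.3% and 20.7% of all genes. Of 11 transcription factors linked to the members, Tbx21 rose with stimulation on day 2 by 4.46 in CD8 cells (adjusted p = 0.000274) and 5.69 in CD4 cells (adjusted p = 5.26e-05), when Cxcr3 was not called. These were 3.88 and 5.66 without the third arrays. On day 5 it was 3.23 higher in continuous than in unstimulated CD8 cells (adjusted p = 7.61e-06) and 5.16 higher in CD4 cells (adjusted p = 2.73e-06). Continuous minus transient was 2.90 for Tbx21 in CD4 cells (adjusted p = 8.81e-05), where Cxcr3 differed by -0.09. Eomes was 2.08 higher in continuous than in transient CD8 cells (adjusted p = 0.000158), and Bhlhe40 2.68 higher (adjusted p = 0.000412).

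The genes most alike to each member over the 10 group means, among genes whose range of means was at least 0.5 times its own, were named by Pearson r, as a description over means that share arrays. For Cxcr3 these were Ctla2b (r = 0.95), Xdh (0.95) and S100a6 (0.94), and for Cxcr6 Baiap3 (0.94), Haao (0.92) and Fcgrt (0.90). For Ccr2 they were Glrx (0.94), Ifi204 (0.91) and Syt11 (0.91). Ccr9 had Stx2 (0.88), Abhd15 (0.84) and Stx1a (0.77). Cxcr4 had no close match over the 10 means, with Tec (0.77), Acbd3 (0.69) and Wfdc18 (0.68). Over the 6 day 5 group means alone its 3 most alike genes had r = 0.98. The 10 means include the third arrays of day 2. Among the members themselves the highest r was 0.78, between Cxcr3 and Ccr2, and Cxcr3 and Ccr9 had r = -0.08, so that the 5 receptors did not share 1 pattern over the groups.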

How the data were processed

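RNA of 28 sorted T cell preparations in 10 groups was read on Affymetrix Mouse 430A2 arrays. The deposited values are log2 signals per probe set, made by the authors with RMA per the submitters' processing notes, whose version is not given in the sources used here. They were used as deposited. Of 22690 probe sets, 64 controls, 691 with several symbols and 1555 with none were left out, and each of the 12393 genes was read from whichever of its probe sets had the highest mean signal. Tests used limma 3.58.1 in R 4.3.3 (lmFit, eBayes) in 1 fit per day, or over 28 arrays across days, with Benjamini-Hochberg adjustment over all genes and calls at an adjusted p below 0.05. Other probe sets of a member come from a fit over all 20380. Every adjusted p, SE and log2 difference in the text is from limma, and the fitting code was tested on simulated data for a comparison of each day and 1 across days. No array pair was identical. The number of arrays limits the precision.

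The members and lists were chosen with earlier results of these data known. Named genes are the members, the 3 genes most alike to each, and from each list the 2 called genes with the largest rise and fall per comparison. Deviations of same-numbered replicates correlated at 0.50, 0.36 and 0.15 in transient against unstimulated CD8 cells. They correlated at 0.42 and 0.28 in continuous against unstimulated CD4 cells, and at 0.45 and 0.40 in unstimulated CD8 against CD4 cells. Continuous against transient CD8 cells had 0.17, 0.22 and 0.02, and each other comparison within a day had a negative value. The main fits used no replicate block. Alternatives were other scalings, array weights, a low-signal filter, other fits, a replicate block and each array left out. Promoters are RefSeq's (GRCm38.p6). Proteins were not used here.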

Additional observations from a re-analysis of the deposited data

Results flagged for a closer look

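These results stood out because a test of the difference between cell types passed. The transient minus unstimulated difference of day 5 differed between CD8 and CD4 cells by -3.04 for Cxcr3, -2.72 for Cxcr4 and -6.31 for Ccr9 on the log2 scale, while the values within each cell type were 1.91 and 4.95 for Cxcr3, -1.83 and 0.89 for Cxcr4, and -5.87 and 0.45 for Ccr9 in CD8 and CD4 cells. The continuous minus transient difference differed by -2.91 for Cxcr6 (-1.38 in CD8 and 1.53 in CD4 cells) and by 1.56 for Cxcr4 (2.41 in CD8 and 0.84 in CD4 cells). The Cxcr4 call was lost in 10 of 19 alternatives, among them the replicate block, the single fit of 28 arrays and 8 fits without 1 array. All of them rest on 2 transient CD4 arrays, which carried B cell marker means of 8.63 and 7.16, and the part of B cell RNA in them was not tested. The 3′ minus 5′ beta-actin signal was 1.92 to 2.44 in unstimulated, 0.66 to 1.02 in transient and 0.31 to 0.56 in continuous CD8 cells. In CD4 cells it was 0.67 to 0.98 in unstimulated, 2.42 to 2.73 in transient and 0.40 to 0.62 in continuous cells. The part of RNA quality in these differences was not tested. Starting levels also limit the results of Cxcr3 and Ccr9. CD8 minus CD4 was 3.42 and 5.67 for them in unstimulated and 0.38 and -0.65 in transient cells. Cxcr3 was 12.7 to 13.3 in transient cells, close to the top of the scale. Ccr9 was 4.32 and 4.96 in unstimulated CD4 cells, where a fall could hardly be read. For both genes the test cannot part a different response from different unstimulated levels.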

How the results depend on the processing

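The counts of called members of 5 changed most where the unstimulated day 2 arrays enter. Leaving out replicate 3 of both unstimulated day 2 groups gave 3 for stimulation in CD8 cells (37.9% of all genes called) and 3 in CD4 cells (65.7%). It gave 2 for the difference of these responses (2.49%) and 1 for CD8 minus CD4 in stimulated cells (0.702%). Across days it gave 3 in CD8 cells (26.6%) and 5 in CD4 cells (33.6%). For the settings that follow, shares of all genes called are not given, so their counts are not read as results about the members. Quantile normalization gave 1 for stimulation in CD8 cells and 2 for CD8 cells across days. Median centring gave 2 for stimulation in CD8 cells and 4 for CD4 cells across days. Array weights gave 3 for stimulation in CD8 cells, 2 for CD8 minus CD4 in stimulated cells, and 3 in CD8 and 5 in CD4 cells across days. Fitting only the groups compared gave 2 in CD8 and 5 in CD4 cells across days. A single fit of 28 arrays gave 2 for stimulation in CD8 cells; 1 in CD8 and 1 in CD4 cells for transient minus unstimulated, and the same for continuous minus unstimulated; 1 in CD8 and 0 in CD4 cells for continuous minus transient; 1 and 0 for the differences between cell types in transient minus unstimulated and in continuous minus transient; and 0 in transient and 2 in unstimulated cells for CD8 minus CD4. With the replicate number as a block, the difference between cell types in continuous minus transient kept 1 called member of 2 (Cxcr4 was lost, at 1.58), and the block changed no other count by over 1.5 times. Leaving out 1 array gave 0 to 3 for stimulation in CD8 cells, 1 to 2 in CD4 cells for transient minus unstimulated and for continuous minus transient, 1 to 2 for the difference between cell types in continuous minus transient, 0 to 1 for CD8 minus CD4 in continuous and 1 to 2 in transient cells. Directions turned for some log2 differences. With 1 array left out, Cxcr6 with stimulation in CD8 cells ran from -3.31 to 0.13 and the difference of its responses between cell types from -1.13 to 2.31, and that difference was -1.60 with array weights and -1.98 without replicate 3 of both groups. Ccr9 ran from -0.49 to 1.38 in transient minus unstimulated CD4 cells, from -0.53 to 1.34 in continuous minus transient CD4 cells and from -1.58 to 0.29 in CD8 minus CD4 transient cells. The cause was not tested. Of 85 member differences, 49 were called in some setting; over their alternatives 630 values kept direction and call, 46 gained a call, 35 lost it and 7 turned. Of the 36 with no call in any setting, 19 changed sign in some alternative.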
